A study of Mus musculus with 6 samples.

Results

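The genes of 3 axon guidance systems were compared between neural precursor-like cells, immortalized from mouse embryos, with and without Lgi1, a secreted protein of neurons whose loss causes epilepsy. They are the ephrins and their Eph receptors, the netrins and repulsive guidance molecules (RGMs) with the receptors Dcc, neogenin and Unc5, and the slits with the Robo receptors and the srGAP proteins. Members were chosen by gene symbol alone, though with earlier results of these data known. This gave 45 genes of the 19938 with a row on the array: 21 of the ephrin system, 14 of the netrin system and 10 of the slit system. For a gene with several rows, its brightest row on average was read. Wild-type and knock-out samples both derive from day 13.5 embryonic brain of strain C57BL/6J, and the knock-out cells lack Lgi1 on both alleles. Once immortalized, cells of both genotypes were grown in RPMI with 1% serum. Each genotype was hybridized to 3 Affymetrix Mouse Gene 1.0 ST arrays, which read RNA as probe intensity, given here on the log2 scale. The labels name the samples of a genotype biological replicates without saying how many embryos or cell lines stand behind them, which part of Lgi1 was deleted, or how the cells were immortalized. The p-values therefore refer to the spread among these samples only, and that spread may be technical.

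Ephrins are ligands held on the cell surface, by a lipid anchor in the A class and by a membrane-spanning segment in the B class, and Eph receptors are the largest family of receptor tyrosine kinases. Contact between cells that carry them usually repels, which keeps cell populations apart at boundaries in the embryonic brain and maps axons onto their targets. Netrins are secreted relatives of laminin that attract axons through Dcc and repel them when Unc5 receptors take part. RGMs bind neogenin and also act as co-receptors for bone morphogenetic proteins. Slits are secreted repellents that bind Robo receptors, and srGAPs bind the inner tail of Robo and act on the cytoskeleton and on membrane shape.

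Of the 45 guidance genes, 25 changed at an adjusted p under 0.05 (limma, adjusted over all genes), against 31.6% of all genes tested. In knock-out cells 17 were higher, where 14.0% of all genes were, and 8 were lower, where 17.6% were. At least 2-fold changes numbered 10 (5.32% of all genes), with 7 upward and 3 downward, against 3.05% and 2.27%. The arrays of the genotypes did not overlap for 29 of the 45, beside 42.3% of all genes. The median log2 change of the 45 genes was +0.03, beside −0.01 for all genes, and the median size of the change without its sign was 0.31 beside 0.11. The signal of a gene that is not transcribed is not 0 on these arrays: the 95th percentile of 1194 receptor genes of smell and pheromone sensing was 5.68, used here as the background level. Among the 11653 genes over it in at least 1 genotype 49.7% changed, and among the 29 such guidance genes 22 did (15 higher and 7 lower). A gene over the level in 1 genotype alone has to differ, so these shares are a description. In both genotypes 25 guidance genes lay over the background level and 16 lay under it. The other 4, Epha3, Unc5c, Slit3 and Srgap1, were over it in knock-out cells alone, Epha3 by a narrow margin (5.68).

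**Figure D1:**
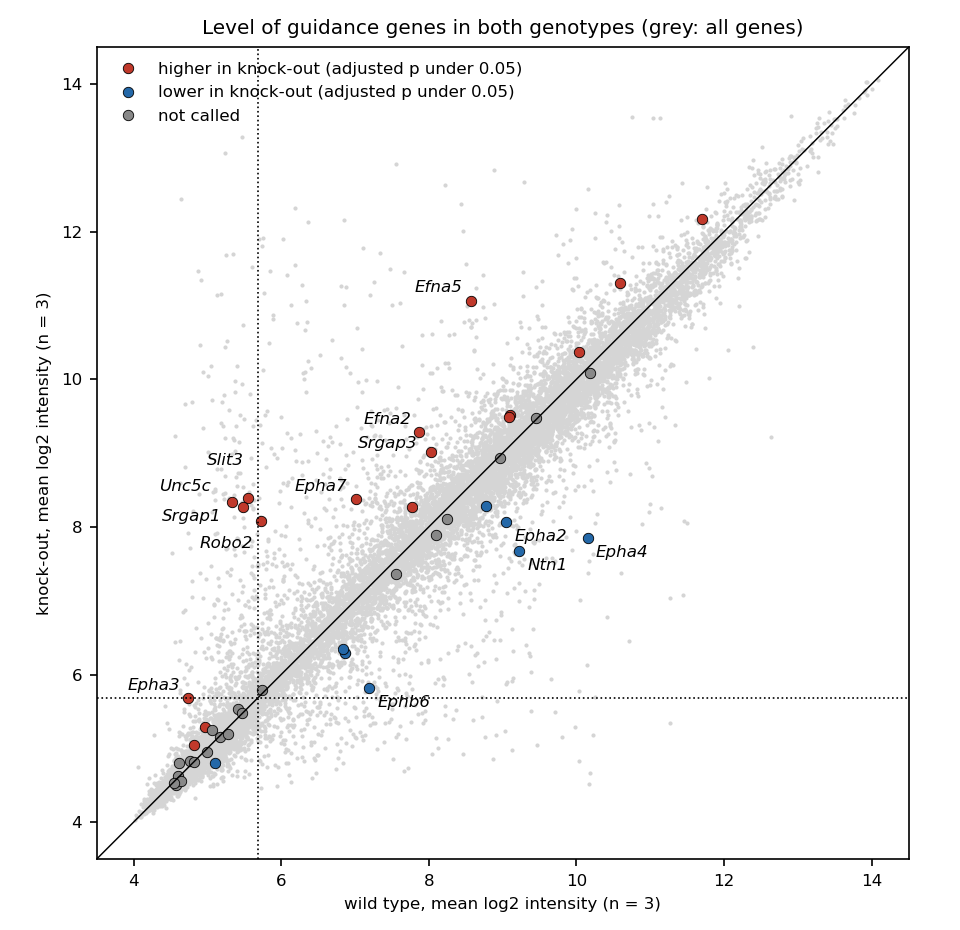
Mean log2 intensity of each guidance gene in wild-type (x axis) and knock-out cells (y axis), 3 arrays each, over all 19938 genes in grey. The solid line marks equal levels and the dotted lines the background level of 5.68; Unc5c, Slit3, Srgap1 and Robo2 stand at the left edge, near background in wild type and above 8 in knock-out cells, and Epha4 and Ntn1 stand furthest below the line.

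The start regions of 5 genes are shown because these genes had the largest changes among the members with a single annotated start: Unc5c, Slit3, Srgap1 and Efna5, which rose, and Epha4, which fell. Each sequence is the 250 bases before the RefSeq start on the gene's own strand (build GRCm38.p6), and capitals mark GC boxes, the motif GGGCGG or its reverse complement CCGCCC that Sp1-type factors are known to bind.
Unc5c: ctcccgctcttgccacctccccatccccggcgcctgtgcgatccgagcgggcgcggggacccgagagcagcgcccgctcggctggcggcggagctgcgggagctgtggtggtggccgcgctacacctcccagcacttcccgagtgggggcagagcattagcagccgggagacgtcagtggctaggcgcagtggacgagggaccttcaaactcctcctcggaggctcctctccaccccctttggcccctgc
Slit3: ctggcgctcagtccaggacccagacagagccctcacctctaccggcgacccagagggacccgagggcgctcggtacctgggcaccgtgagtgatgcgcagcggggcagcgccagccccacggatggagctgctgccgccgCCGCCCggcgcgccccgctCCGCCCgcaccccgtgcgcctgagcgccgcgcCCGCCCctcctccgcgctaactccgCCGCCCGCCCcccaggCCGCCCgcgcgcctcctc
Srgap1: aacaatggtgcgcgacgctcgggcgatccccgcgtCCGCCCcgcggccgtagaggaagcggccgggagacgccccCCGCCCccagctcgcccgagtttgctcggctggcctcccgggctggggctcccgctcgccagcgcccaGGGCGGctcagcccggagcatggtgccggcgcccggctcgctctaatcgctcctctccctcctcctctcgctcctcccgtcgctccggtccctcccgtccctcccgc
Efna5: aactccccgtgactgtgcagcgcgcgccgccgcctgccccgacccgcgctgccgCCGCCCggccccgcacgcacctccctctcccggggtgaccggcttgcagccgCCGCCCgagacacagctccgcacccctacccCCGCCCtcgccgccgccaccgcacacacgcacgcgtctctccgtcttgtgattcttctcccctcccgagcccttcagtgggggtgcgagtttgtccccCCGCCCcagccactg
Epha4: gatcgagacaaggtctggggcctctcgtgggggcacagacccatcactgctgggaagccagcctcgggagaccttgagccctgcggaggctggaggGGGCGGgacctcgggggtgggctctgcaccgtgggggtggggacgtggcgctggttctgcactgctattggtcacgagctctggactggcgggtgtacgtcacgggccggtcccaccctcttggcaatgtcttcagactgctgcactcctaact
These windows lie at chr3:141465314-141465563 (plus strand) for Unc5c, chr11:35121206-35121455 (plus strand) for Slit3, chr10:122047316-122047565 (minus strand) for Srgap1, chr17:62881318-62881567 (minus strand) for Efna5 and chr1:77515089-77515338 (minus strand) for Epha4. They differed in base composition: Epha4 had 66.0% G and C with 14 CpG sites, and the other 4 had 71.2% to 78.8% with 23 to 35. Overlapping matches on both strands counted, Slit3 held 6 GC boxes, Efna5 4, Srgap1 3, Epha4 1 and Unc5c none, and Epha4 alone of these 5 held the CCAAT box (CCAAT or ATTGG), while none held TATAAA or TTTATA. RefSeq start windows were matched for 39 of the 45 guidance genes. In them, at least 1 GC box stood in 34 of 46 windows (73.9%), against 32.7% of all 32851 windows of that length in the table, and the median G and C content was 64.6% against 52.4%. The GC box stood in 71.4% of 21 windows of genes that rose (17 genes). It stood in 90.0% of 10 windows of genes that fell (7 genes) and in 66.7% of 15 of genes that did not pass (15 genes). These are matches of letters and not measured binding.

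Among the ephrins, the A-class ligands moved in both directions. Efna5, a ligand that repels retinal and cortical axons, had log2 values of 8.57, 8.56 and 8.59 on the wild-type arrays and of 11.09, 11.10 and 11.00 in knock-out cells. No array of either genotype came near the other, and the spread within a genotype was under 0.1. The means were 8.57 ± 0.0162 and 11.06 ± 0.0539 (SD, n = 3 each), a 5.62-fold rise (log2 +2.49, SE 0.06, adjusted p = 5.4e-10). Efna2, which acts with Efna5 in the map of the retina onto the midbrain, rose 2.66-fold. Its values went from 8.03, 7.69 and 7.90 to 9.26, 9.36 and 9.23 (log2 +1.41, SE 0.09, adjusted p = 8.1e-07), again without overlap.

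The other A-class ephrins changed less. Efna1, a ligand often studied with Epha2, rose by 0.50 on the log2 scale (from 7.77 ± 0.182 to 8.26 ± 0.144, adjusted p = 0.0037), a call lost without moderation (adjusted p = 0.077). Efna3 fell by 0.56 (from 6.86 ± 0.0717 to 6.30 ± 0.0671, adjusted p = 9.6e-05), and its arrays did not overlap. Efna4 had means of 8.10 and 7.89 and did not pass (log2 −0.21, 95% interval −0.44 to 0.01, adjusted p = 0.14), but it passed when the replicate number entered as a block (adjusted p = 0.021), and also without knock-out replicate 1 (log2 −0.31, adjusted p = 0.030). Efna1, Efna3 and Efna4 are direct neighbours on chromosome 3, and the first rose while the second fell.

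The B-class ligands, which can also signal back into the cell that carries them, showed small differences. Efnb2, a marker of arteries as well as a guidance ligand, had values of 9.80, 10.27 and 10.05 in wild-type and 10.36, 10.44 and 10.33 in knock-out cells. It was called higher (log2 +0.34, SE 0.11, adjusted p = 0.034), with wild-type replicate 1 the lowest array. The call was lost when any array other than wild-type replicate 2 was left out (adjusted p 0.063 to 0.10). It was also lost with chromosome medians subtracted (adjusted p = 0.076), with arrays centred on their medians (adjusted p = 0.055) and without moderation (adjusted p = 0.19). Efnb1 had means of 7.56 ± 0.0774 and 7.37 ± 0.0823 and did not pass (log2 −0.19, adjusted p = 0.061). With the replicate block it did (adjusted p = 0.030). Leaving out wild-type replicate 1 also gave a call (log2 −0.24, adjusted p = 0.043), as did quantile normalization (adjusted p = 0.027), median centring (adjusted p = 0.036) and a filter at the median level (adjusted p = 0.045). In the other 12 of 17 settings Efnb1 stayed uncalled, with log2 changes as small as −0.11 and adjusted p up to 0.30. Efnb1 lies on the X chromosome, whose brighter genes had a median change of −0.19. The inactivation RNA of that chromosome, Xist, differed between the genotypes as given below. Efnb3 was under background in both genotypes (log2 difference +0.06, 95% interval −0.17 to 0.30).

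**Figure D2:**
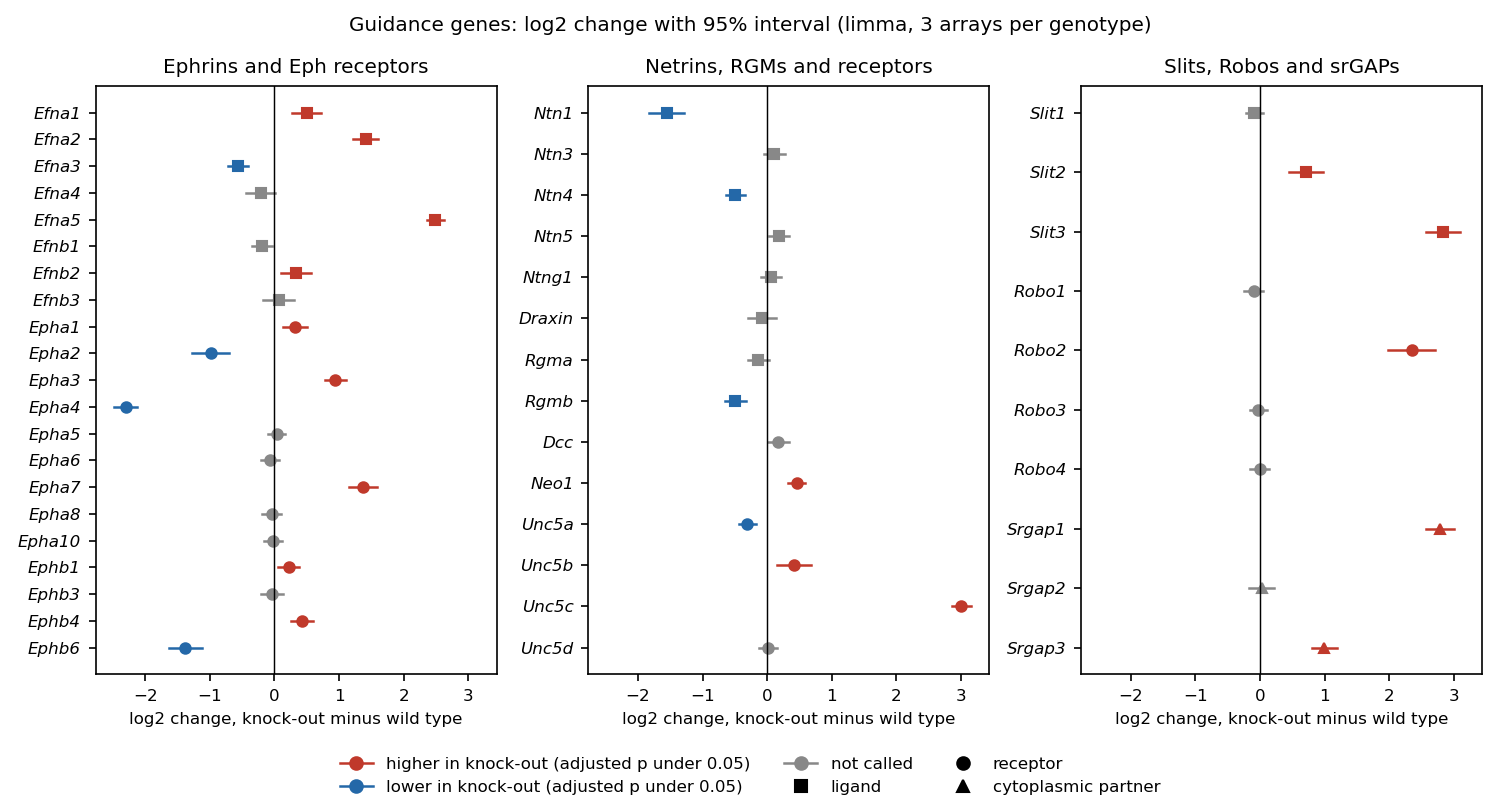
Log2 change of each of the 45 guidance genes, knock-out minus wild type, with its 95% interval from limma (3 arrays per genotype); squares are ligands, circles receptors and triangles the cytoplasmic srGAPs. Red points passed as higher and blue as lower at an adjusted p under 0.05; the changes run from −2.30 for Epha4 to +3.01 for Unc5c.

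Among the EphA receptors, Epha4 had the largest fall of all 45 guidance genes. Epha4 binds ephrins of both classes and sets boundaries in the hindbrain and the path of corticospinal axons. Its values were 10.03, 10.25 and 10.17 in wild-type and 7.77, 7.98 and 7.79 in knock-out cells, so every knock-out array lay more than 2 log2 units below every wild-type array. The fall was 4.93-fold (log2 −2.30, SE 0.08, adjusted p = 9.3e-09), and the signal stayed over background. Epha2, a receptor of epithelia and progenitors, went from 8.80, 9.32 and 9.03 to 7.85, 8.18 and 8.16 and fell by 0.99 on the log2 scale (SE 0.13, adjusted p = 0.00020).

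Epha7 and Epha3 went the other way. Epha7, which takes part in cortical and midbrain patterning, had values of 7.14, 6.84 and 7.04 in wild-type and 8.40, 8.52 and 8.21 in knock-out cells. It rose 2.58-fold with no overlap of arrays (log2 +1.37, SE 0.10, adjusted p = 2.2e-06). Epha3, a receptor with high affinity for ephrin-A5, rose from a background signal of 4.74 ± 0.106 to 5.68 ± 0.0809 (log2 +0.94, adjusted p = 4.7e-06). As the knock-out mean only reached the background level, this change gives no usable fold. Epha1 stayed under background in both genotypes (4.97 and 5.29), although it was called higher (log2 +0.31, adjusted p = 0.016), a call lost without wild-type replicate 3 (adjusted p = 0.052) and without moderation (adjusted p = 0.11). Epha5, Epha6, Epha8 and Epha10 were under background in both genotypes and did not pass, with log2 differences of −0.07 to +0.03.

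Among the EphB receptors, Ephb6 fell and Ephb4 rose. Ephb6, a family member without kinase activity, had values of 7.12, 6.97 and 7.49 in wild-type and 5.75, 5.84 and 5.85 in knock-out cells. The knock-out arrays lay just over background and none reached a wild-type value (2.60-fold lower, log2 −1.38, SE 0.12, adjusted p = 7.5e-06). With knock-out cells so near that level, this fold may be understated. Ephb4, the vein-side partner of ephrin-B2, rose from 9.10 ± 0.116 to 9.52 ± 0.0738 (log2 +0.43, adjusted p = 0.0015). Ephb3 was clearly over background and gave no call, with values of 8.93, 8.89 and 9.08 against 8.88, 9.05 and 8.86 that interleave (log2 −0.03, 95% interval −0.21 to 0.14). Ephb1 was called higher (log2 +0.22, adjusted p = 0.038) at a level under background (4.83 and 5.05). That call was lost without any array other than wild-type replicate 1 (adjusted p 0.051 to 0.13). It was also lost as the mean of its pair of rows (log2 +0.11, adjusted p = 0.20), with arrays centred on their medians (adjusted p = 0.076) and without moderation (adjusted p = 0.11).

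In the ephrin system as a whole, 9 of 21 genes rose and 4 fell. That is 61.9% called, against 31.6% of all genes and 49.7% of those over background in at least 1 genotype. The 21 include 7 genes under background in both genotypes, which the last share leaves out, so these sets are unlike. Of the 8 ligands 4 rose and 1 fell, and of the 13 receptors 5 rose and 3 fell. Among the 5 receptors called higher, Epha1 and Ephb1 were under background in both genotypes and Epha3 only reached it. The largest rise was that of a ligand, Efna5, and the largest fall that of a receptor which binds it, Epha4.

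Of the netrin-side ligands 3 of 8 fell and none passed as higher (37.5% called, against 31.6% of all genes). Ntn1, the netrin of the floor plate that draws commissural axons to the midline, had values of 9.05, 9.20 and 9.42 in wild-type and 7.42, 7.77 and 7.81 in knock-out cells. The groups were more than 1 log2 unit apart at their nearest arrays, and the fall was 2.94-fold (log2 −1.56, SE 0.12, adjusted p = 3.8e-06). Ntn4, a netrin of basement membranes, fell by 0.49 (from 6.83 ± 0.0617 to 6.34 ± 0.0864, adjusted p = 0.00030). Rgmb fell by a similar 0.49 (from 8.77 ± 0.0807 to 8.28 ± 0.105, adjusted p = 0.00053). Rgma, first known as a repellent of retinal axons, had means of 8.25 and 8.11 and did not pass (log2 −0.14, 95% interval −0.30 to 0.03). With chromosome medians subtracted it passed as lower (log2 −0.35, adjusted p = 0.0050). For this setting, each array's median over the brighter genes of a chromosome was taken out of every gene there.

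The remaining ligands lay near or under the background level. Ntn3 and Ntn5 were under it (log2 differences +0.11 and +0.18), as was Draxin, a netrin-binding repellent (−0.08), and none of these passed. Ntn5 passed without knock-out replicate 1 (log2 +0.23, adjusted p = 0.044). Ntng1, a netrin held on the membrane that binds a partner on other neurons, was at 5.74 and 5.79 (log2 +0.05). A further row of Ntng1 gave a higher value in knock-out cells (from 4.84 to 5.20, log2 +0.36, adjusted p = 0.0037 with every row tested), so the rows of this gene disagree; the row used was narrowly over background in both genotypes and the further row under it.

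Among the netrin receptors, Unc5c rose the furthest. It mediates repulsion by netrin and guides cerebellar and hindbrain cells. Its wild-type values of 5.28, 5.45 and 5.28 lay under background and its knock-out values were 8.36, 8.36 and 8.31. This was an 8.03-fold rise in intensity (log2 +3.01, SE 0.07, adjusted p = 3.3e-10), which is a lower bound because wild type was at background. Neo1, or neogenin, the receptor shared by netrins and RGMs, was far over background and rose from 11.75, 11.65 and 11.71 to 12.16, 12.20 and 12.14 (log2 +0.46, SE 0.06, adjusted p = 0.00019). Its arrays did not overlap, and the whole difference was 1.38-fold. Unc5b, an Unc5 receptor also found in endothelium, was called higher (from 9.08 ± 0.12 to 9.49 ± 0.255, log2 +0.41, adjusted p = 0.023). The call was lost without wild-type replicate 2 or 3 or knock-out replicate 2 or 3 (adjusted p 0.052 to 0.085), with chromosome medians subtracted (log2 +0.26, adjusted p = 0.12) and without moderation (adjusted p = 0.17).

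Dcc, the receptor for attraction by netrin-1, lay under background in both genotypes, at 4.59, 4.64 and 4.64 in wild-type and 4.92, 4.71 and 4.76 in knock-out cells. Its difference did not pass (log2 +0.18, adjusted p = 0.091) but did with chromosome medians subtracted (log2 +0.33, adjusted p = 0.0081). Unc5a fell within the background range (from 5.11 to 4.80, log2 −0.31, adjusted p = 0.0025), and Unc5d was under it with no call (log2 +0.01). Over the netrin system 3 of 14 genes rose and 4 fell, Unc5a among the latter. That is 50% called, against 31.6% of all genes and 49.7% of those over background in at least 1 genotype. The 14 include 6 genes under background in both genotypes, which the last share leaves out, so these sets are unlike. Of the receptors over background in both genotypes, Neo1 and Unc5b were called higher, Unc5b with a call lost in 6 of 17 settings. Unc5c was over background in knock-out cells alone, so a choice by level fixes its direction. The ligands over background that were called were all lower.

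**Figure D3:**
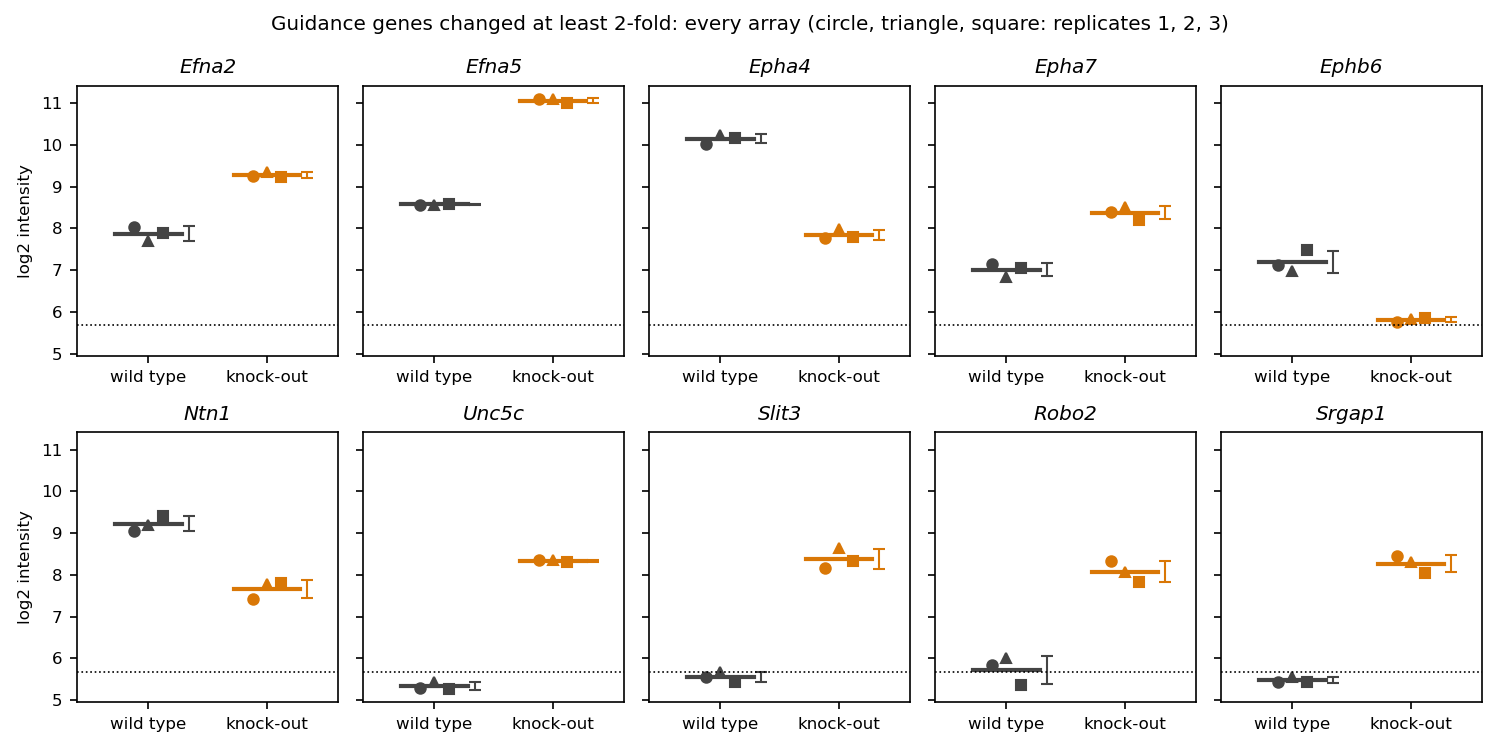
Log2 intensity on every array of the 10 guidance genes that passed with at least a 2-fold change; horizontal bars are means of 3 arrays, vertical bars 1 SD, and the dotted line the background level of 5.68. In each panel the wild-type and knock-out arrays are separate, and Unc5c, Slit3 and Srgap1 start under the dotted line in wild type.

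In the slit system 5 of 10 genes rose and none fell. That is 50% called, against 31.6% of all genes and 49.7% of those over background in at least 1 genotype. The 10 include 3 genes under background in both genotypes, which the last share leaves out, so these sets are unlike. Slit3, which besides guidance is known from diaphragm and vessel development, had wild-type values of 5.56, 5.67 and 5.43, under background, and knock-out values of 8.17, 8.65 and 8.33. It rose 7.12-fold in intensity (log2 +2.83, SE 0.12, adjusted p = 2.8e-08), again a lower bound. Slit2, the main midline repellent of the forebrain, was high in both genotypes: 10.33, 10.57 and 10.87 in wild-type and 11.35, 11.22 and 11.34 in knock-out cells. It rose 1.64-fold without overlap (log2 +0.71, SE 0.12, adjusted p = 0.00096), and did not pass without moderation (adjusted p = 0.051). Slit1, a slit of neurons, was under background in both (log2 −0.08, 95% interval −0.22 to 0.05).

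Among the receptors, Robo2 rose and Robo1 did not pass. Robo2 values were 5.83, 6.00 and 5.36 in wild-type and 8.33, 8.07 and 7.83 in knock-out cells. The wild-type arrays straddled the background level, and the knock-out arrays were all more than 1 log2 unit higher (5.09-fold, log2 +2.35, SE 0.16, adjusted p = 1.9e-06). With wild type so near that level, this fold may be understated. Robo1, which shares slit binding with Robo2 and is its direct neighbour on chromosome 16, was at 10.10, 10.18 and 10.28 against 10.12, 10.07 and 10.08. These arrays overlap, and the difference was −0.10 (95% interval −0.24 to 0.05). With chromosome medians subtracted Robo1 passed as lower (log2 −0.20, adjusted p = 0.031). Robo3, the commissural receptor that delays the response to slit, and Robo4, the endothelial member, are neighbours on chromosome 9 and were under background in both genotypes (log2 −0.02 and −0.0028).

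The srGAP proteins link Robo to the cytoskeleton. Srgap1, which lowers Cdc42 activity downstream of slit, had values of 5.43, 5.57 and 5.45 in wild-type and 8.44, 8.32 and 8.05 in knock-out cells. It too went from under background to well over it (6.92-fold, log2 +2.79, SE 0.10, adjusted p = 7.4e-09), so this fold is a lower bound as well, and Unc5c, Slit3 and Srgap1 cannot be ranked among themselves. Srgap3, a gene of neuronal branching, went from 7.95, 8.03 and 8.09 to 9.09, 9.13 and 8.83 (log2 +0.99, SE 0.09, adjusted p = 1.0e-05). Its further row gave a like change (log2 +1.11). Srgap2, which induces membrane protrusions in migrating neurons, was at 9.50, 9.43 and 9.41 against 9.66, 9.39 and 9.36 and did not pass (log2 +0.03, 95% interval −0.16 to 0.21). Slit3, Robo2 and Srgap1, a ligand, a receptor and a cytoplasmic partner of the same system, thus each rose by more than 2 log2 units.

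Genes that act with these ligands and receptors were taken from 4 lists of 75 names, of which 69 were measured. Of these, 25 rose and 23 fell (69.6% changed, against 31.6% of all genes and 49.7% of those over background in at least 1 genotype), with a median log2 change of +0.01. The 69 include 13 genes under background in both genotypes, which the last share leaves out. The lists were drawn up with earlier results of these data known, so this comparison is a description only. Among 21 partners of ephrins and Ephs, 4 rose and 10 fell (median −0.13). Chn1, the chimaerin that carries EphA4 signals to Rac, rose by 1.13 and the exchange factor Vav3 by 1.12, while Adam10, a protease that cuts ephrins from the surface, fell by 0.84 and the kinases Src and Fyn by 0.57 and 0.56. Among 23 partners of netrin receptors, 12 rose and 4 fell (median +0.21). The largest rises were those of Flrt3, a ligand of Unc5 receptors, by 2.55 (from 6.66 to 9.21), of Lrig3, a regulator of netrin-1, by 1.38 and of Flrt2 by 1.19. Ank3, an ankyrin of the neuronal membrane skeleton, fell by 1.44.

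Among 15 partners of slits and Robos, 3 rose and 6 fell (median −0.08). Nell2, a secreted ligand of Robo3, had the largest measured change of any partner, from 5.19 in wild-type, under background, to 9.41 in knock-out cells (log2 +4.23, SE 0.07, adjusted p = 6.3e-11), a lower bound for the same reason. Robo3 itself was under background, as given above. Cxcr4, the chemokine receptor whose responses slit can silence, fell by 1.06. Of 10 partners of RGMs 6 rose and 3 fell (median +0.32). The ligands Bmp6 and Bmp4 rose by 2.05 and 1.50, and Lrp6 by 1.23. Bmp4 lies on chromosome 14, whose brighter genes had a median change of +0.41 as a whole; no guidance member lies there.

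**Figure D4:**
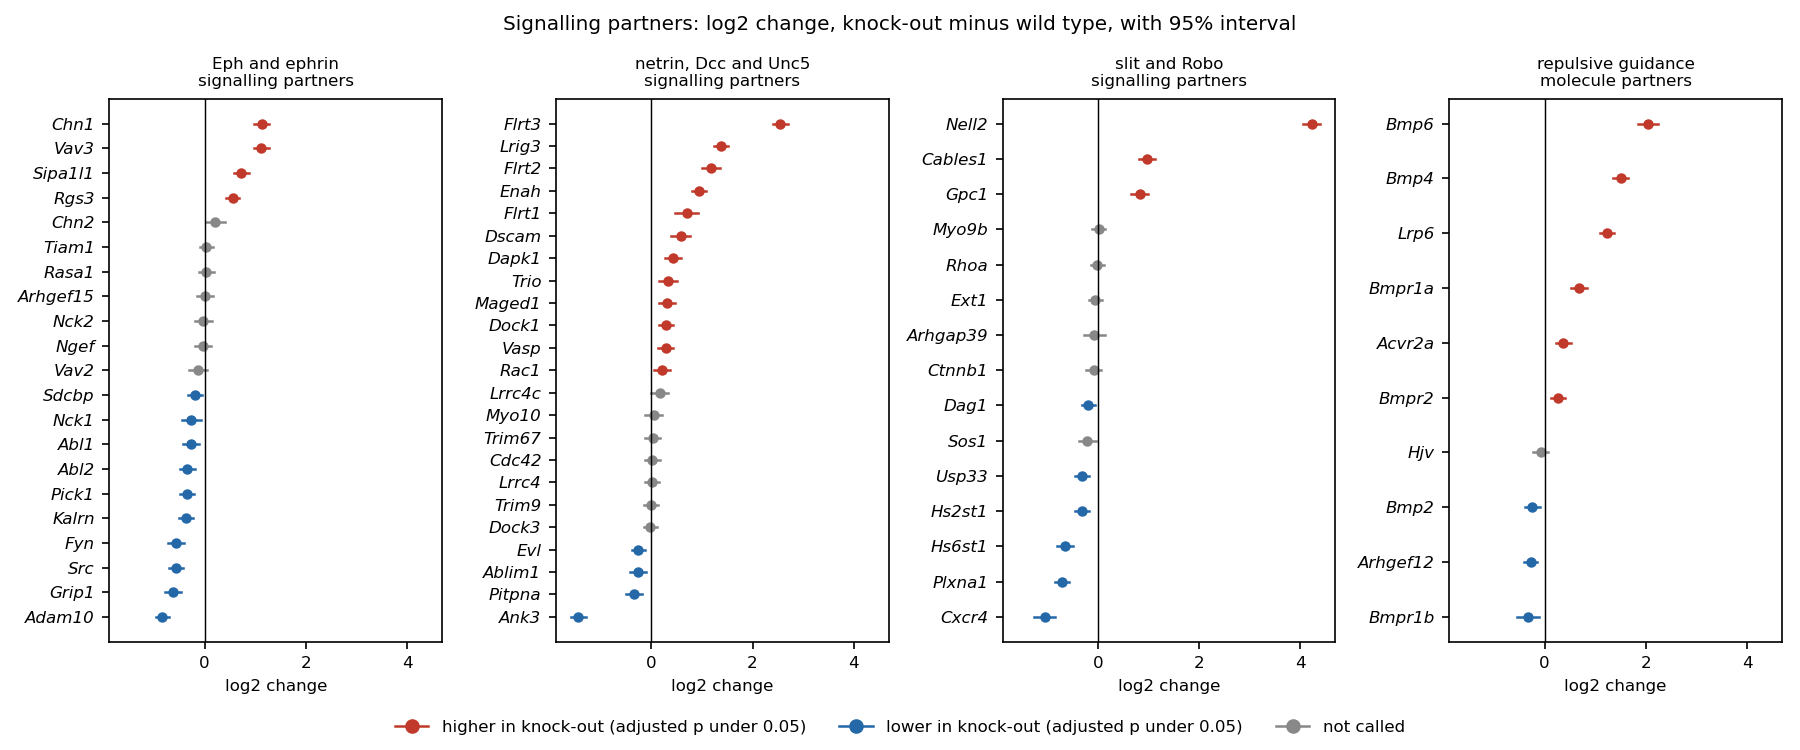
Log2 change, knock-out minus wild type, of the 69 measured signalling partners in 4 lists, with 95% intervals from limma; colours mark calls at an adjusted p under 0.05. The partners of netrin receptors hold 12 rises and 4 falls, those of ephrins and Ephs 4 rises and 10 falls, and Nell2 stands furthest to the right at +4.23.

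Several features of the samples moved with genotype beside every result above. Array medians lay at 6.36 to 6.41, and correlations over all rows were 0.993 to 0.995 within a genotype and 0.968 to 0.971 between them. Lgi1 itself was under background in both genotypes (4.77 and 4.55, adjusted p = 0.075) and could not check the labels. Xist was at 4.55 to 4.80 in wild-type and 12.41 to 12.50 in knock-out cells, and the Y-linked gene Eif2s3y at 9.99 to 10.29 and 4.54 to 4.81, so sex chromosome genes separated the genotypes on every array. Of 15 markers of fibroblasts and meninges 13 were higher in knock-out cells and 1 lower. Their summed linear intensity was 13854 to 15226 in wild-type and 38595 to 40699 in knock-out cells, and 11 and 15 of them were over background. Of 14 measured progenitor and radial glia markers 2 were higher and 6 lower, with sums of 18458 to 20325 and 15826 to 16400. Sox2, a defining factor, fell from 11.26 to 5.35, under background. Fabp7, Nes and Pax6 also fell (log2 −3.21, −2.01 and −1.69). Sox9 rose from 8.05 to 10.61, and Vim, the brightest of the list, had means of 13.53 and 13.52. Sums of linear intensity weigh such bright markers most. Of 12 neuron markers 1 was higher and 2 were lower. Wild-type cells had 3 of them over background and knock-out cells 2, with sums of 1506 to 1636 and 2293 to 2495. Map2, the brightest of these, rose from 10.05 to 10.95 and Syt1 fell from 6.42 to 5.50, while Dcx, Rbfox3 and Tubb3 were under background in both. Of 8 endothelial markers, wild-type cells had none over background and knock-out cells 2, with sums of 242 to 267 and 1374 to 1531. Erg rose from 5.37 to 9.97 and Tek from 5.07 to 8.21, while Kdr was called lower under background (5.21 and 4.77). Pecam1, Cdh5, Cldn5, Emcn and Tie1 were under background in both and not called. Efnb2, Ephb4 and Unc5b, called higher above, are also known from vessels, as is Robo4, which was under background and not called. The calls of Efnb2 and Unc5b were lost in 8 and 6 of 17 settings. These genes are examples and not a full list of members known from vessels. Over background were also 3 and 2 of 8 astrocyte markers, 3 of 7 oligodendrocyte markers in both genotypes and 1 of 7 microglia markers in both. Of the astrocyte markers 1 was higher and 2 were lower. Aqp4 fell from 7.46 to 5.36, under background, and Fgfr3 by 1.19, while Slc1a2 was called higher under background. Of the oligodendrocyte markers Cspg4 was higher (log2 +0.82) and Mbp lower (log2 −0.87). Trem2 alone of the microglia markers was called, as lower (log2 −0.23). In such bulk RNA, fewer cells of a type and less RNA per cell cannot be told apart. The part of sex chromosomes and of these marker differences in the changes of guidance genes was not tested, and each is confounded with genotype.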

How the data were processed

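Biotinylated cDNA from 250 ng of total RNA was hybridized to 1 array per sample, per the labels' protocols. The authors deposited 1 log2 value per probe set and array (scale judged from the range). Partek is named without a version in the submitters' processing notes. For background correction, normalization and summarization the method was not given in the sources used here, so its effect on small differences is unknown. Of 35556 rows 21789 had a single gene symbol in GEO's platform annotation, which left 19938 genes. RefSeq's table (GRCm38.p6) gave chromosomes and gene order and matched 21698 of those rows.

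The genotypes were compared by limma 3.58.1 under R 4.3.3 (lmFit, eBayes, no trend, no block), with Benjamini-Hochberg adjustment over all 19938 genes. Changed means an adjusted p under 0.05. Every member is named, with each array's value where it changed at least 2-fold or a system turns on it, and so are partners from 2-fold upward; Adam10, Src and Fyn were added after their values were seen. Members and lists were chosen with earlier results of these data known. On simulated data with 19938 genes the test recovered 50 of 50 genes at each of the log2 changes 0.5, 1, 2 and 4, and called 11 unchanged genes. In the real data 31.6% of all genes changed, a far larger share, so the simulation does not measure the power of this comparison.

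Same-numbered arrays deviated together (correlations over genes of 0.19 to 0.29 in 3 pairs, against −0.19 to −0.0047 in the other 6). As deviations were taken from each genotype's mean, these ranges are not independent of each other. The titles' replicate numbers were therefore entered as a block in a further setting, while the main fit stayed unpaired. Where a block for that number changes a call, its value stands beside the result. Further settings were filters on low values, other scalings, uses of several rows, variance models and thresholds, chromosome medians subtracted, and arrays left out.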

Additional observations from a re-analysis of the deposited data

How the results depend on the processing

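Over 17 other settings (thresholds apart) 19 to 30 guidance genes were called, 11 to 20 of them higher and 8 to 10 lower. Of all genes, 4451 to 7864 were called in these settings. Both counts were lowest without moderation and highest with chromosome medians subtracted. Of the 25 called guidance genes, 19 kept call and direction in every setting in which they were tested. The 6 others were Efna1, Efnb2, Epha1, Ephb1, Slit2 and Unc5b, and none of the 25 changed sign. Without moderation 11 guidance genes were called higher, beside 2037 of all genes. The 6 genes just named then all lost their calls (adjusted p 0.051 to 0.19). With 3 arrays per genotype that fit rests on few degrees of freedom. Requiring at least a 2-fold change left 10 guidance genes (7 higher and 3 lower), 11 partners (9 and 2) and 1061 of all genes (608 and 453). With single arrays left out, 21 to 25 guidance genes were called, beside 5485 to 5803 of all genes. The replicate block changed the calls of Efna4 and Efnb1 and of no other guidance gene.

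Signs turned only for genes that were not called, most of them near background, and the cause was not tested. Centring on array medians gave Srgap2 −0.0077 and Unc5d −0.0228. Averaging the rows gave Unc5d −0.0211, and array weights gave Robo4 8e-04. With chromosome medians subtracted the log2 changes were −0.15 for Srgap2, +0.22 for Slit1, +0.017 for Epha10, −0.0255 for Ntn5, −0.0653 for Unc5d, +0.20 for Robo4 and +0.18 for Robo3; Slit1, Robo3, Robo4, Epha5 (+0.18) and Dcc then passed, though under background. With single arrays left out, the ranges were −0.0308 to 0.16 for Efnb3, −0.0903 to 0.0061 for Epha8, −0.0349 to 0.0416 for Unc5d, −0.041 to 0.039 for Robo4, −0.0955 to 0.0223 for Ephb3, −0.0683 to 0.0807 for Srgap2, −0.15 to 0.0032 for Draxin, −0.0082 to 0.0973 for Ntng1 and −0.0536 to 0.0216 for Epha10. Signal over background limits the 16 genes under it in both genotypes, whose differences cannot be read as levels of RNA.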
